A study of Rattus norvegicus with 74 samples.

Results

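miR-10 and miR-196 are microRNAs (miRNAs) encoded inside the Hox gene clusters, and their levels were followed through the life span of the rat kidney. All arms of miR-10a, miR-10b, miR-196a, miR-196b and miR-196c on the array were taken by name, which gave 10 miRNAs. Of these, 8 were detected on at least 1 of the 74 arrays, out of 311 detected among the 677 miRNAs on the array. The files name them with the species prefix, such as rno-miR-10a-5p, rno-miR-10b-5p, rno-miR-196a-5p and rno-miR-196c-5p, which is left out from here on. miR-196a-3p and miR-196b-3p were detected on none of the 74 arrays. The 5p arms of all 5 miRNAs, miR-10a-3p and miR-10b-3p were detected on all 74 arrays, and miR-196c-3p on 40.

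The samples were whole kidneys of untreated rats of the inbred Fischer strain F344, female and male. The younger animals were 2, 5, 6 and 8 weeks old and the older ones 15, 21, 78 and 104 weeks. Each array held the RNA of a single animal, with 4 arrays in the groups of females at 2, 5, 8 and 21 weeks and of males at 8 and 104 weeks, and 5 arrays in each of the other 10 groups. All groups share the strain, and none carried a transgene or received an agent. The comparisons ask how the level of each miRNA differed between ages within each sex and between the sexes at each age.

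Hox genes encode the transcription factors that set position along the body axis of the embryo and pattern the developing kidney. miR-10 and miR-196 genes lie between or inside Hox genes, are transcribed in the same direction as their neighbours and can repress Hox transcripts, miR-196 being known for the cleavage of Hoxb8 mRNA. A miRNA hairpin yields a 5p and a 3p arm, and the arm that is loaded finds its targets chiefly through its seed, bases 2 to 8. Levels of Hox mRNAs were not measured on these arrays.

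The mature sequences are shown because the 3 miR-196 miRNAs differ by single bases and the pair of miR-10 miRNAs nearly so. They were taken from RefSeq on the GRCr8 assembly, where 9 of the 10 miRNAs were matched, and are written 5′ to 3′ with the seed in capitals.
miR-196a-5p: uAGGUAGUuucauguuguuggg
miR-196b-5p: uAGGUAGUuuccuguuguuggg
miR-196c-5p: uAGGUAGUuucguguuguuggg
miR-10a-5p: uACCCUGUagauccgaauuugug
miR-10b-5p: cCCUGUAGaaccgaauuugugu

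The 3 miR-196 5p arms share the seed AGGUAGU. Counted from the 5′ end, miR-196a-5p differs from miR-196b-5p by A12C over 22 bases and from miR-196c-5p by A12G, while miR-196b-5p differs from miR-196c-5p by C12G. The seed ACCCUGU of miR-10a-5p and the seed CCUGUAG of miR-10b-5p differ because the annotated miR-10b-5p starts 2 bases later. Over the 21 bases that overlap, the pair differs by U12A alone, counted from the 5′ end of miR-10a-5p, and the 2 hairpin bases before miR-10b-5p equal the first 2 of miR-10a-5p. The probe sequences were not used here, so hybridization of a probe to a miRNA that differs by 1 base was not tested.

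Each hairpin lies in a Hox cluster of GRCr8. miR-10a-5p is at chr10:81779730-81779752 on the + strand, from the gene Mir10a between Hoxb5 and Hoxb4. miR-196c-5p is at chr10:81727561-81727582 on the + strand, between Hoxb13 and Hoxb9, so the Mir196c and Mir10a hairpins are in the same cluster with 52079 bases between them. miR-196a-5p is at chr7:135988900-135988921 on the + strand, between Hoxc10 and Hoxc9. miR-196b-5p is at chr4:82661149-82661170 on the − strand, between Hoxa9 and Hoxa10. miR-10b-5p is at chr3:80035886-80035907 on the + strand, inside the span annotated for Hoxd4. Mir615, the other miRNA gene of the Hox clusters on the array, lies inside the spans of Hoxc6 and Hoxc5, and miR-615 was not detected on any array.

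Values are normalized intensities, the background-subtracted signal of a miRNA summed over its probes and divided by the 75th percentile of the 311 detected miRNAs on the same array. That percentile lay between 81.2 and 283 in scanner units, and 190 to 264 miRNAs were detected per array (median 232). The 4 kidney epithelium markers, miR-192-5p, miR-194-5p, miR-204-5p and miR-30a-5p, were detected on all 74 arrays. The 2- to 8-week samples were on 5 slides and the 15- to 104-week samples on the other 5, except for 15-week female replicate 5, so a difference between a younger and an older age is also a difference between slides. A miRNA was called for age when its adjusted p over the 311 was under 0.05 and some pair of ages differed at least 1.5-fold.

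All 3 miR-196 5p arms fell with age in both sexes. The mean levels were highest at 2 weeks and lowest at 104 weeks. In bulk tissue, fewer cells that hold a miRNA and less of it per cell cannot be told apart. Across the 8 ages, 4 of the 8 detected miRNAs were called in females, where 36.7% of all tested miRNAs were, and 4 of 8 in males, where 45.3% were. The count is near the background share in both sexes. Those called were the 3 miR-196 5p arms in both sexes, miR-10b-3p in females and miR-196c-3p in males.

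The normalized intensity of miR-196a-5p in the 4 females of 2 weeks was 3.28, 3.40, 3.77 and 3.85, and in the 5 males 3.78, 4.03, 4.08, 4.32 and 5.01. At 5 weeks the females were at 2.12, 2.22, 2.30 and 2.56 and the males at 2.19, 2.19, 2.28, 2.35 and 2.64. No 5-week animal of either sex reached the lowest 2-week animal of that sex. At 21 weeks the females were at 1.55, 1.77, 1.78 and 2.11 and the males at 1.52, 1.80, 1.94, 2.06 and 2.07. At 104 weeks the females were at 1.30, 1.36, 1.38, 1.44 and 1.51 and the males at 1.02, 1.20, 1.30 and 1.44, all under the 21-week animals of their sex. The difference of 104 minus 2 weeks was -1.35 (SE 0.0824) on the log2 scale in females, 2.55-fold, with an adjusted p of 1.29e-14 by limma. In males it was -1.78 (SE 0.117), 3.43-fold, with an adjusted p of 2.71e-14. The age by sex interaction of miR-196a-5p did not pass the threshold (adjusted p = 0.0863) without a block. It passed with slide as a fixed block (0.00954) or random block (0.0219) and with scan day as a block (0.0142). It also passed with all miRNAs of the array tested (0.0387). It did not pass with any of the other scalings or with the other background correction. The same held with the floor set before scaling, with the detection filter and with replicate number as a block.

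miR-196b-5p, encoded in the HoxA cluster, was at 4.01, 4.18, 4.69 and 4.87 in the females of 2 weeks and at 2.67, 2.80, 3.02 and 3.25 in those of 5 weeks. The males of 2 weeks were at 4.29, 4.50, 4.55, 4.70 and 5.27, and those of 5 weeks at 2.86, 2.87, 2.91, 3.04 and 3.10. The groups of 2 and 5 weeks did not overlap in either sex. At 104 weeks the females were at 2.36, 2.41, 2.48, 2.56 and 2.58 and the males at 2.04, 2.21, 2.24 and 2.35. The 104-week females lay within the range of the 21-week females (2.31 to 2.87), and the difference of 104 minus 21 weeks in females was -0.07 (SE 0.0719, adjusted p = 1). The difference of 104 minus 2 weeks was -0.84 (SE 0.0719) in females and -1.08 (SE 0.0821) in males, with adjusted p-values of 3.45e-11 and 7.90e-13 by limma.

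miR-196c-5p, from the HoxB cluster, was at 0.285, 0.311, 0.327 and 0.455 in the females of 2 weeks and 0.365, 0.388, 0.405, 0.466 and 0.517 in the males. At 104 weeks it was at 0.154, 0.164, 0.167, 0.180 and 0.188 in females and at 0.139, 0.146, 0.160 and 0.175 in males, with no overlap with the 2-week animals. The difference of 104 minus 2 weeks was -0.99 (SE 0.119, adjusted p = 2.99e-08) in females and -1.46 (SE 0.143, adjusted p = 2.42e-10) in males. Of its 4 probes, 3 gave such a fall and the fourth was at the floor, the value given to undetected signals, on 67 arrays. For miR-196a-5p and miR-196b-5p each of the 2 probes alone gave the same call in both sexes.

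**Figure D1:**
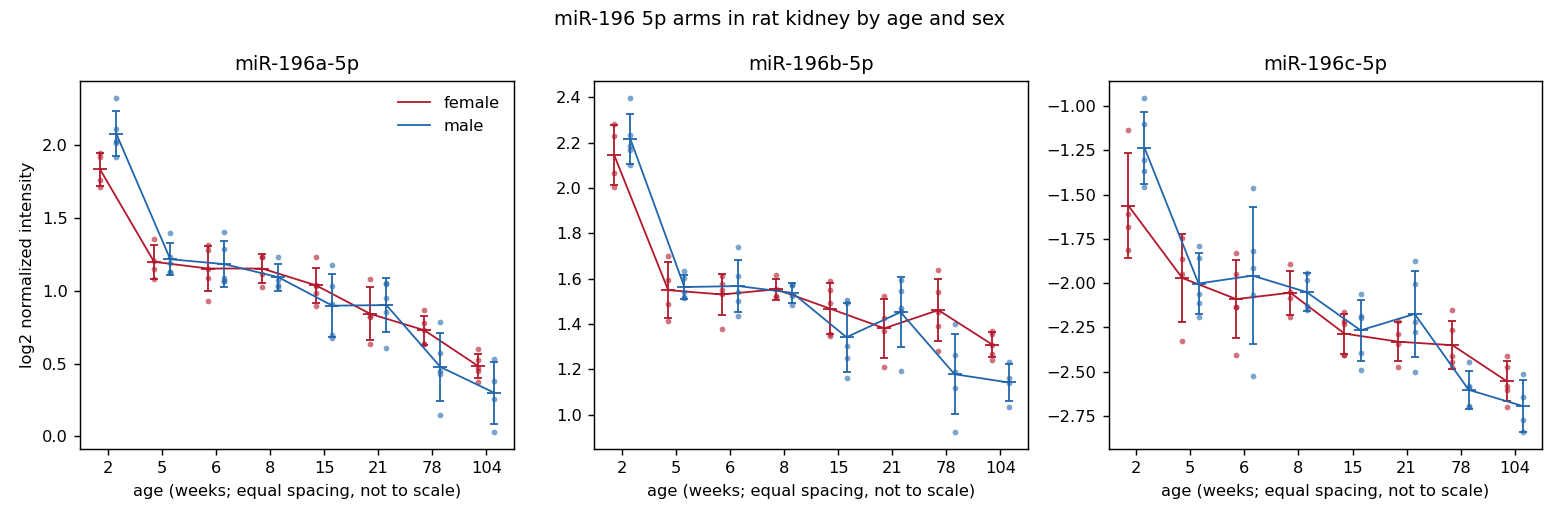
Log2 normalized intensity of miR-196a-5p, miR-196b-5p and miR-196c-5p by age in weeks (equally spaced), with points for single animals and horizontal bars and whiskers for the mean ± SD of females (red) and males (blue). The highest levels are at 2 weeks in every panel, where miR-196a-5p lies between 3.28 and 5.01 on the linear scale, and the lowest means are at 104 weeks in both sexes.

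Among the steps between neighbouring ages, miR-196 5p arms were called from 2 to 5 weeks, all 3 in males and miR-196a-5p and miR-196b-5p in females. For 5 minus 2 weeks, 3 of the 8 miRNAs were called lower in females, against 10.9% of all tested, and 3 of 8 in males, against 11.9%. In females these were miR-196a-5p (-0.63, SE 0.0868), miR-196b-5p (-0.60, SE 0.0758) and miR-10b-3p (-0.98, SE 0.309). In males they were miR-196a-5p (-0.86, SE 0.111), miR-196b-5p (-0.65, SE 0.0774) and miR-196c-5p (-0.77, SE 0.134). miR-196c-5p in females differed by -0.41 (SE 0.126), which passed on adjusted p (0.0117) but not on fold. When single females were left out it lay between -0.49 and -0.27, with an adjusted p of up to 0.0896. The median of the 8 differences was -0.46 in females and -0.40 in males, against 0 over all tested miRNAs in both, and -0.06 and 0.01 over the 166 detected on all arrays. These calls depended on the scaling and background. With normexp, miR-196a-5p and miR-196b-5p in females were at -0.26 and -0.23 (adjusted p = 0.758 for both), miR-10b-3p in females at -0.22, and miR-196c-5p in males at -0.31. When the scaling percentile included undetected miRNAs, miR-196a-5p and miR-196b-5p in females were at -0.53 and -0.49, under the fold, as was miR-196b-5p in males (-0.58) when the arrays were scaled on the miRNAs that all of them detected. The females' calls of miR-196b-5p and miR-10b-3p here rested on single animals, since the former lay between -0.55 and -0.65 and was under the fold without 2-week female replicate 3 or 4 or 5-week female replicate 3 or 5, and the latter was -0.83 (adjusted p = 0.0623) without 2-week female replicate 5.

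No miRNA of the set was called in the steps of 6 minus 5, 8 minus 6, 15 minus 8, 21 minus 15 or 104 minus 78 weeks in either sex. The shares of all miRNAs called in those steps, in that order, were 1.29%, 0.643%, 2.57%, 0.322% and 3.54% in females and 0%, 0.322%, 0.965%, 1.93% and 1.29% in males. For 78 minus 21 weeks, none was called in females, where 2.57% of all were, and miR-196c-3p was called in males at -0.70 (SE 0.174), where 7.4% of all miRNAs were called lower. That difference rests on the floor, to which 4 of the 5 males of 78 weeks were set.

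As scaled here, the miR-196 5p arms were lower again in males between 21 and 104 weeks. The median difference of the 8 miRNAs in males was -0.47. It was -0.05 over all tested miRNAs and -0.20 over the 166 detected on all arrays, so part of each difference is shared with other miRNAs. For 104 minus 21 weeks in males, 3 of the 8 miRNAs were called lower, against 8.04% of all tested: miR-196a-5p (-0.60, SE 0.117), miR-10b-3p (-0.63, SE 0.236) and miR-196c-3p (-0.69, SE 0.185). miR-196c-5p (-0.52, SE 0.143, adjusted p = 0.00545) and miR-196b-5p (-0.31, SE 0.0821, adjusted p = 0.00417) passed on adjusted p alone, as did miR-10b-5p (-0.42, SE 0.0967), which makes 6 of 8 against 22.2% of all tested. In females none was called, against 1.93% of all tested, and miR-196a-5p (-0.36, SE 0.0824, adjusted p = 0.00367) was under the fold although no 104-week female reached the lowest female of 21 weeks. miR-196a-5p in males was under the fold without 104-week male replicate 6 (-0.51) or without 21-week male replicate 1 (-0.57) or 3 (-0.57), and miR-10b-3p missed the adjusted p when any of 6 animals was left out. When the arrays were scaled instead on the 166 miRNAs that all of them detected, these differences in males became -0.28 for miR-196a-5p (adjusted p = 0.0880), 0.01 for miR-196b-5p, -0.31 for miR-10b-3p (adjusted p = 0.404) and -0.44 for miR-196c-3p. With normexp the 3 calls were lost, at -0.44 for miR-196a-5p, -0.22 for miR-10b-3p and -0.21 for miR-196c-3p. With quantile normalization miR-10b-3p and miR-196c-3p missed the adjusted p (0.103 and 0.111), and with undetected miRNAs in the percentile miR-196c-3p was at -0.57, under the fold. At 104 weeks, 3 of the 4 males had miR-196c-3p at the floor.

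The falls could also be followed inside slides and scan days. For 5 minus 2 weeks, miR-196a-5p, miR-196b-5p and miR-196c-5p were lower on 3 of the 3 slides that held both ages in females and on 5 of 5 in males. The slide differences of miR-196c-5p in females ran from -0.73 to -0.06 with a median of -0.13. For 104 minus 21 weeks in males they were lower on 4 of 4 slides, and in females miR-196a-5p was lower on 4 of 4 (-0.55 to -0.19). Ages 2 and 104 weeks shared no slide but shared 2 scan days. Within those days the 104 minus 2 week difference of miR-196a-5p was -1.45 and -1.22 in females and -1.61 and -2.15 in males. For miR-196b-5p it was -0.90 and -0.73 in females and -1.01 and -1.11 in males, and for miR-196c-5p -1.03 and -0.69 in females and -1.20 and -1.75 in males.

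Over 2 to 8 weeks alone, the 3 miR-196 5p arms were called in males, where 30.2% of all miRNAs were, and miR-196a-5p, miR-196b-5p and miR-10b-3p in females, where 21.2% were. Leaving out 2-week female replicate 3 left miR-196a-5p as the only call in females. The call of miR-10b-3p in females was at the threshold (F test adjusted p = 0.0499). It was kept without 6-week female replicate 2, 3, 4 or 5 and lost without any other single animal of those ages. Over 15 to 104 weeks, miR-196a-5p and miR-196c-3p were called in males, where 16.7% of all miRNAs were, and miR-196a-5p was lost without 104-week male replicate 6. No miRNA of the set was called in females, where 7.4% of all were. Without 15-week female replicate 5, the array on a younger slide, 12.2% were called in females and still none of the set.

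The miR-10 5p arms changed less. On adjusted p alone, 7 of the 8 miRNAs differed over the ages in females, against 49.8% of all tested, and 5 of 8 in males, against 58.8%. Over the 8 ages miR-10a-5p passed on adjusted p in females (5.66e-06) with a largest difference between ages of 1.43-fold, and it did not in males (0.0784). miR-10b-5p passed in both sexes (9.04e-04 in females, 2.54e-04 in males), with largest differences of 1.29-fold and 1.43-fold. Neither reached the 1.5-fold that a call required.

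miR-10a-5p was at 33.0, 34.1, 34.5 and 38.5 in the females of 2 weeks and at 31.6, 32.5, 32.7, 37.1 and 39.3 in those of 104 weeks, so the groups overlapped. Its female group mean was highest at 78 weeks, where the animals were at 41.5, 42.3, 43.5, 43.8 and 44.3, all above the females of 2 and of 104 weeks, and 1 female of 15 weeks reached 44.0. The step of 104 minus 78 weeks in females was -0.32 (SE 0.0705, adjusted p = 0.00841). Males of 2 weeks were at 32.0, 35.3, 36.1, 36.1 and 39.3 and those of 104 weeks at 25.2, 30.9, 31.1 and 31.3, without overlap. The difference of 104 minus 2 weeks was -0.02 (SE 0.0747, adjusted p = 1) in females and -0.27 (SE 0.0884, adjusted p = 0.0107) in males.

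miR-10b-5p, from the HoxD cluster, was at 17.0, 19.0, 19.5 and 21.5 in the females of 2 weeks and at 15.9, 16.2, 16.6, 18.6 and 19.3 in those of 104 weeks. The males were at 17.8, 20.7, 21.2, 21.5 and 22.7 at 2 weeks and at 12.4, 14.8, 15.5 and 15.6 at 104 weeks. The male groups did not overlap, and the female groups did. The difference was -0.15 (SE 0.0786, adjusted p = 0.129) in females and -0.51 (SE 0.0967, adjusted p = 3.27e-05) in males. From 2 to 5 weeks it differed by -0.30 (SE 0.0829, adjusted p = 0.00532) in females and -0.37 (SE 0.0911, adjusted p = 0.00135) in males.

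The 3p arms of miR-10 were close to the detection limit. miR-10b-3p was at 0.0588, 0.0644, 0.0813 and 0.103 in the females of 2 weeks and at 0.0366, 0.0377, 0.0389 and 0.0389 in those of 5 weeks, without overlap. In males it was at 0.0462, 0.0474, 0.0618, 0.0767 and 0.0783 at 2 weeks and at 0.0285, 0.0314, 0.0339 and 0.0401 at 104 weeks, a difference of -0.87 (SE 0.236, adjusted p = 0.00261). Over the 8 ages it passed in females (adjusted p = 0.0388) and not in males (0.0527), and none of its 3 probes alone was called in either sex. miR-10a-3p differed by -0.10 (SE 0.123) in females and -0.32 (SE 0.146) in males between 2 and 104 weeks, with adjusted p-values of 0.604 and 0.0677. miR-196c-3p was at the floor on 35 arrays, all 5 males of 6 weeks among them, so its largest fold between ages in males (1.72) depends on the floor.

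**Figure D2:**
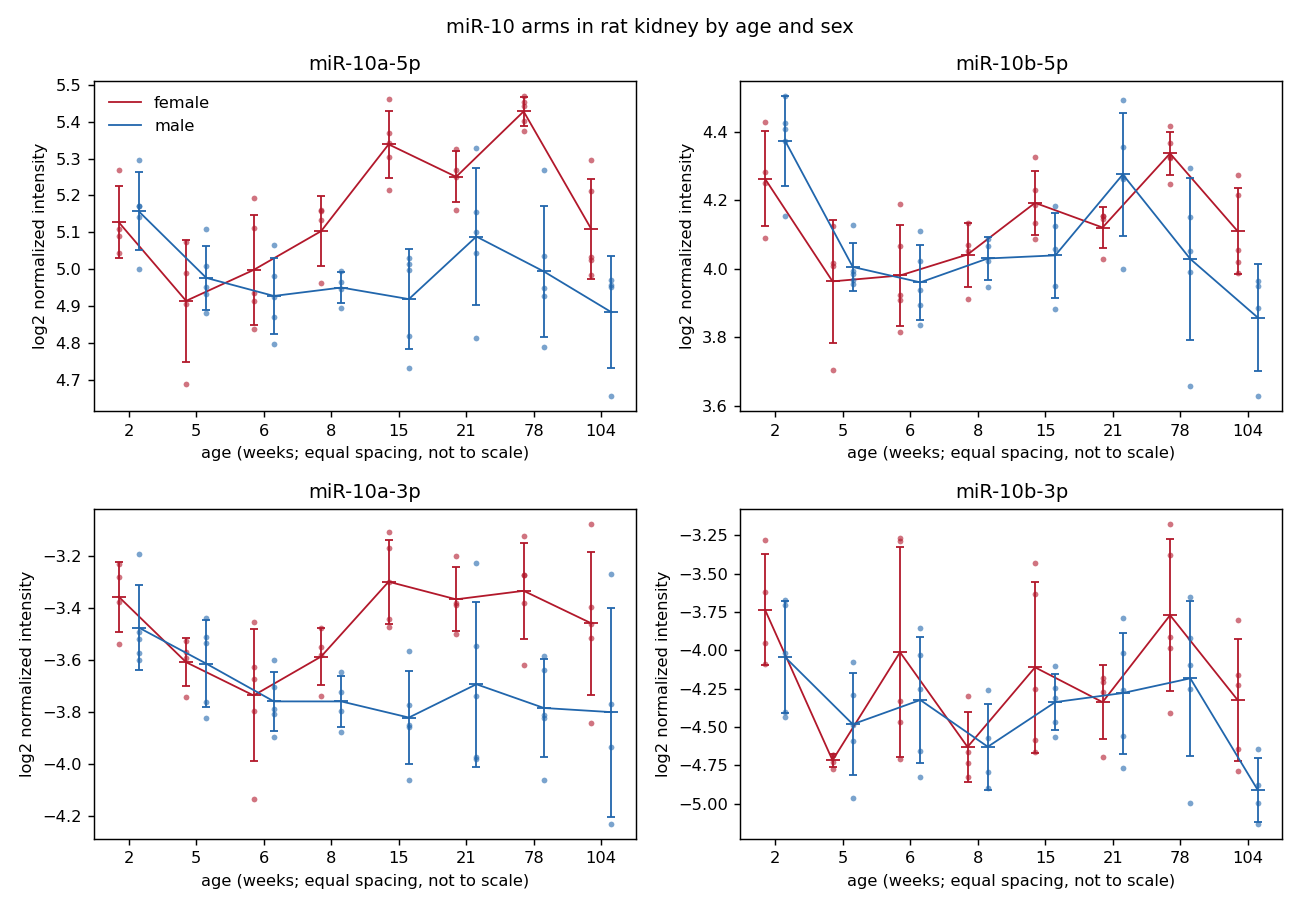
Log2 normalized intensity of both arms of miR-10a and miR-10b by age in weeks (equally spaced), with points for single animals and the mean ± SD of females (red) and males (blue). The females of 78 weeks have the highest mean of miR-10a-5p (41.5 to 44.3 on the linear scale), and the wide whiskers of miR-10b-3p show its spread near the detection limit.

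Over the whole span, 3 of the 8 miRNAs were called lower at 104 than at 2 weeks in females, against 11.9% of all tested, and 4 of 8 in males, against 18%. None was called higher. The median difference of the 8 was -0.44 in females and -0.69 in males. It was 0 over all tested miRNAs, many of them at the floor, and 0.015 in females and -0.11 in males over the 166 detected on all arrays. With normexp in place of the scanner's background correction, the females' miR-196 5p arms were no longer called by the F test over the 8 ages. The 104 minus 2 week differences were then -0.74, -0.34 and -0.53 for miR-196a-5p, miR-196b-5p and miR-196c-5p. The median of all miRNAs moved by -0.36. The males' calls over the 8 ages were kept.

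**Figure D3:**
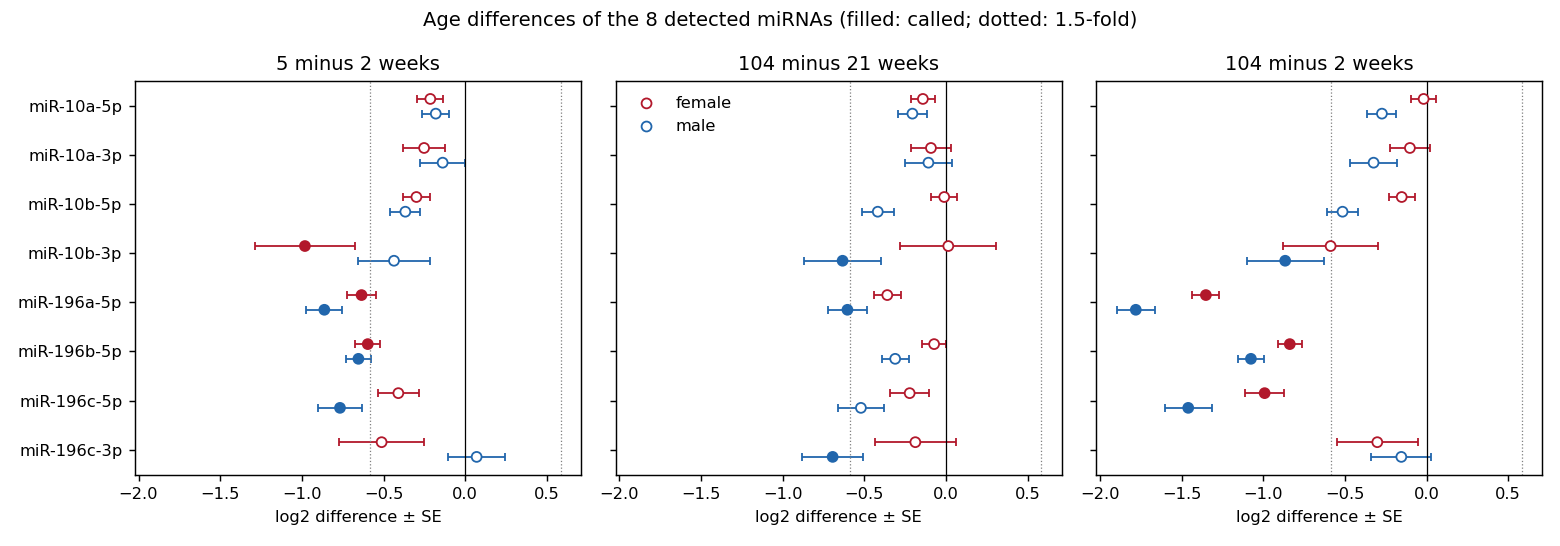
Log2 differences ± SE of the 8 detected miRNAs for 5 minus 2, 104 minus 21 and 104 minus 2 weeks in females (red) and males (blue), filled where called and with dotted lines at 1.5-fold. At 104 minus 2 weeks the 3 miR-196 5p arms lie between -0.84 and -1.78 and miR-10b-3p in males at -0.87, while miR-10a-5p lies at -0.02 in females and -0.27 in males.

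Ratios between miRNAs of the same array do not depend on the scaling and show where the members changed by unequal amounts. Among the 7 miRNAs detected on all arrays, 42 ratios were compared between 2 and 104 weeks by an exact two-sided permutation test of 4 against 5 animals, for which the smallest possible p is 0.00794. With Benjamini-Hochberg adjustment over the 42, 13 of 21 ratios changed in females and 16 of 21 in males. The groups did not overlap for 11 ratios in females and 15 in males. The share among ratios of other miRNAs was not computed, so these counts are not read as particular to the set. The 21 ratios come from 7 miRNAs and are not independent.

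The ratio of miR-10a-5p to miR-196a-5p rose by 1.33 on the log2 scale in females and by 1.51 in males, with the 104-week animals all above those of 2 weeks. Its ratio to miR-196b-5p rose by 0.82 in females and 0.80 in males, and its ratio to miR-196c-5p by 0.97 and 1.19 (exact permutation adjusted p = 0.0159 for each). miR-10a-5p and miR-196c-5p come from the same HoxB cluster, and their ratio changed by an amount between those of miR-10a-5p to the HoxA and HoxC members. With normexp, the rise against miR-196c-5p no longer passed, being 0.96 in females (adjusted p = 0.197) and 0.47 in males (adjusted p = 0.0635).

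The miR-196 5p arms fell by unequal amounts. The log2 ratio of miR-196a-5p to miR-196b-5p in females went from -0.31 ± 0.0380 (SD, n = 4) at 2 weeks to -0.83 ± 0.0596 (SD, n = 5) at 104 weeks, a change of -0.51 (exact permutation adjusted p = 0.0159). In males it went from -0.14 ± 0.0749 (SD, n = 5) to -0.84 ± 0.182 (SD, n = 4), a change of -0.70 (exact permutation adjusted p = 0.0159). Because the probes of the 2 miRNAs differ, the ratio itself is not a ratio of amounts, and only its change is read. The ratio of miR-196a-5p to miR-196c-5p changed by -0.36 in females (exact permutation adjusted p = 0.0460) and -0.32 in males (0.0256), a call that was lost in females when any of 7 of the 9 animals was left out.

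The ratio of miR-10a-5p to miR-10b-5p had a narrow spread and rose by 0.13 in females and 0.24 in males between 2 and 104 weeks (exact permutation adjusted p = 0.0159 in both). The ratio of the 2 arms of miR-10a, miR-10a-3p to miR-10a-5p, had a wider spread (SD 0.181 at 2 weeks and 0.306 at 104 weeks in females). It differed by -0.08 in females and -0.05 in males, with exact permutation adjusted p-values of 0.667 and 0.778, and lay between -0.21 and -0.01 in females and between -0.20 and 0.02 in males when single animals were left out.

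**Figure D4:**
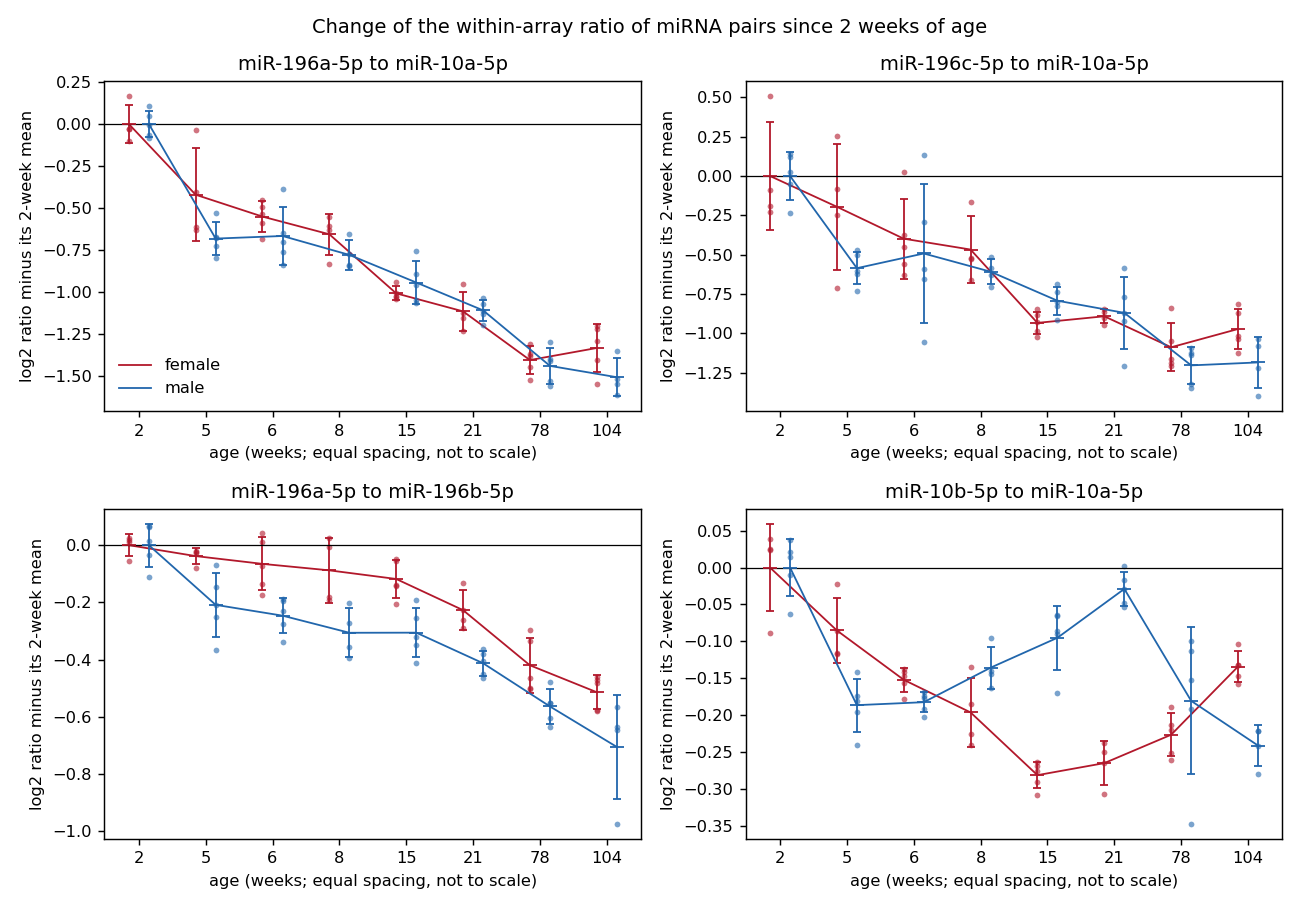
Change of 4 log2 ratios between miRNAs of the same array since 2 weeks of age, by age in weeks (equally spaced), with points for single animals and the mean ± SD of females (red) and males (blue), each sex set to a mean of 0 at 2 weeks. The ratio of miR-196a-5p to miR-10a-5p falls in both sexes (at 104 weeks by 1.33 in females and 1.51 in males), and that of miR-196a-5p to miR-196b-5p also falls.

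Between the sexes, none of the 8 miRNAs was called at any age with a 1.5-fold threshold, where the share of all miRNAs called was 3.86%, 0%, 0.322%, 1.29%, 3.54%, 4.82%, 6.75% and 6.11% from the youngest to the oldest age. Smaller differences passed on adjusted p, all with the males lower and all from 15 weeks on. On adjusted p alone, 2 of the 8 passed at 15 weeks, against 8.04% of all miRNAs, 4 at 78 weeks, against 20.3%, and 2 at 104 weeks, against 20.3%.

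miR-10a-5p was at 37.1, 39.5, 40.5, 41.4 and 44.0 in the females of 15 weeks and at 26.6, 28.2, 32.0, 32.3 and 32.7 in the males, a male minus female difference of -0.42 (SE 0.0778, adjusted p = 5.60e-05). At 78 weeks the females were between 41.5 and 44.3 and the males at 27.7, 30.4, 30.9, 32.8 and 38.6, a difference of -0.43 (SE 0.0778, adjusted p = 1.78e-05). The sexes did not overlap at either age. At 104 weeks the difference was -0.23 (SE 0.0825, adjusted p = 0.0409), which was -0.15 (adjusted p = 0.294) without 104-week male replicate 6 and also missed the threshold without 104-week female replicate 2 or 4. miR-10a-3p, the other arm of the hairpin, differed by -0.52 (SE 0.128, adjusted p = 0.00393) at 15 weeks and -0.45 (SE 0.128, adjusted p = 0.00742) at 78 weeks.

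miR-10b-5p was lower in males at 78 weeks by -0.31 (SE 0.0837, adjusted p = 0.00504) and at 104 weeks by -0.25 (SE 0.0888, adjusted p = 0.0350), and miR-196b-5p at 78 weeks by -0.28 (SE 0.0733, adjusted p = 0.00325). Without 104-week male replicate 6 the 104-week difference of miR-10b-5p was -0.18 (adjusted p = 0.241), and it also missed the threshold without 104-week female replicate 2 or 4, as did the 78-week difference without 78-week male replicate 6 (adjusted p = 0.0741). These sex differences depended on the scaling. When the scaling percentile included undetected miRNAs, none of the 8 passed at any age, and miR-10a-5p differed by -0.15 (adjusted p = 0.581) at 15 weeks and -0.19 (adjusted p = 0.478) at 78 weeks. With quantile normalization the differences of miR-10a-5p at 15 and 78 weeks were -0.30 (adjusted p = 0.00904) and -0.33 (adjusted p = 0.00187), and the 104-week differences of miR-10a-5p and miR-10b-5p turned to 0.05 and 0.06. With normexp the 15-week difference of miR-10a-3p turned to 0.04.

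**Figure D5:**
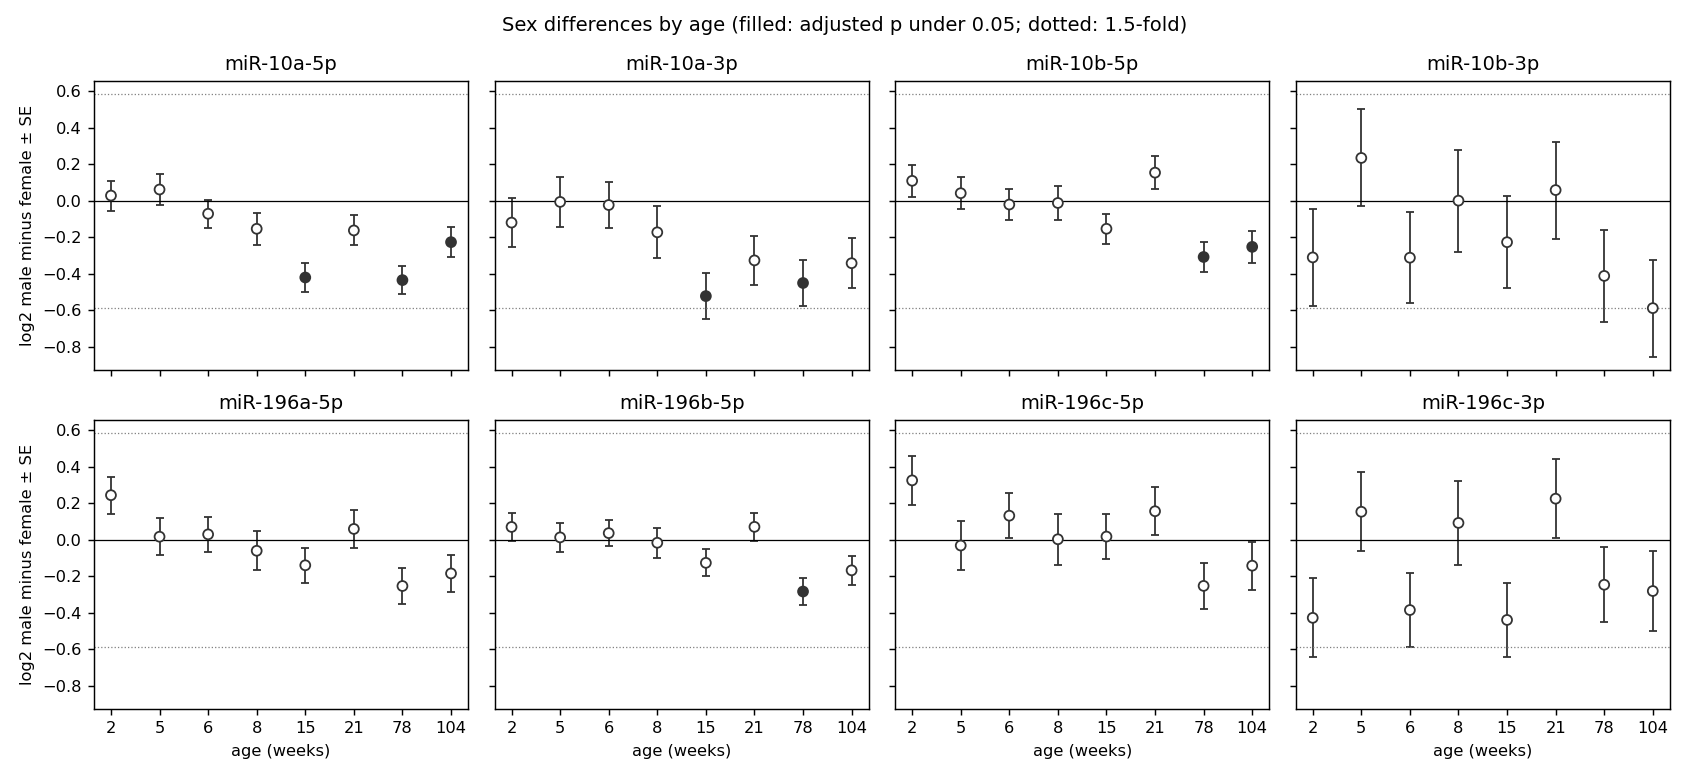
Male minus female log2 difference ± SE of each detected miRNA at each age in weeks, filled where the adjusted p was under 0.05, with dotted lines at 1.5-fold. The filled points lie below 0 and at 15 weeks or later, and those of miR-10a-5p are at -0.42, -0.43 and -0.23.

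The age course differed between the sexes by the interaction test for miR-10a-5p (adjusted p = 6.80e-04), miR-10b-5p (0.0101) and miR-196b-5p (0.0379), where 27.7% of all miRNAs passed. The change from 2 to 104 weeks was lower in males than in females by -0.26 for miR-10a-5p, -0.36 for miR-10b-5p and -0.24 for miR-196b-5p. The interaction test covers all the ages at once, so its p-values are not those of this change. Scaled on the miRNAs that all arrays detected, these became 0.10, -0.01 and 0.12 and none passed. None passed either when the percentile included undetected miRNAs (-0.16, -0.26 and -0.14) or with normexp (interaction adjusted p of 0.706, 0.706 and 0.387). The interaction of miR-196b-5p also missed the threshold with the floor set before scaling (adjusted p = 0.0677) and with quantile normalization (0.131).

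Likeness of the age and sex pattern was described by Pearson's r over the 16 group means of log2 values, against 159 other miRNAs detected on all arrays. The groups share the scaling and the slides, and no test was made. The 3 miR-196 5p arms had r of 0.96 to 0.99 among themselves, miR-10a-5p and miR-10b-5p 0.77, and miR-10a-5p had 0.03 to 0.19 with the miR-196 5p arms. Nearest to miR-196a-5p were miR-181c-5p (0.95), miR-100-5p (0.95) and miR-181d-5p (0.95). Nearest to miR-196b-5p were miR-181d-5p (0.97), miR-324-5p (0.96) and miR-126a-3p (0.95), and to miR-196c-5p miR-181d-5p (0.96), miR-100-5p (0.95) and miR-181a-5p (0.95). miR-10a-5p was nearest to miR-421-3p (0.81), miR-98-5p (0.76) and miR-3559-5p (0.75), and miR-10b-5p to miR-342-3p (0.86), miR-98-5p (0.81) and let-7e-5p (0.80). The nearest to miR-10a-3p was miR-421-3p (0.88) and to miR-10b-3p let-7e-5p (0.77), each at a lower r than the nearest to any miR-196 5p arm.

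miR-99 and miR-100 are sequence relatives of miR-10 outside the Hox clusters. The sequence of miR-100-5p, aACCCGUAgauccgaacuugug, is shown with that of miR-99b-5p, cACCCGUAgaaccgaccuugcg, because they share the seed ACCCGUA, close to that of miR-10a-5p. Of the 5 detected arms of miR-99a, miR-99b and miR-100, 1 was called between 2 and 104 weeks in females, lower at 104 weeks, and 3 in males, 2 of them lower. miR-100-5p fell by 0.80 (SE 0.127) in females and 0.83 (SE 0.110) in males on the log2 scale, with medians of 1.28 and 1.32 at 2 weeks and 0.700 and 0.733 at 104 weeks and no overlap. In males, miR-99b-5p also fell, by 0.64 (SE 0.108), and miR-99a-3p rose by 0.67 (SE 0.255). Over the same ages the miR-10 5p arms differed by -0.02 and -0.15 in females and -0.27 and -0.51 in males.

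The summed levels of markers of other cell types differed between the ages, and their part in the results was not tested. The summed level of the 2 endothelial arms, miR-126a-3p and miR-126a-5p, had 2-week medians of 20.1 in females and 17.5 in males. In all later groups the medians were between 12.9 and 15.9. The miR-196 5p arms were also highest at 2 weeks, where the mean of miR-196a-5p was 3.57 in females and 4.24 in males. The summed level of the 4 leukocyte miRNAs, of which miR-142-3p, miR-150-5p and miR-223-3p were on all arrays and miR-142-5p on 10, had medians of 2.06 (females) and 1.74 (males) at 2 weeks, and of 3.42 and 6.41 at 104 weeks. In males the range at 104 weeks was 5.56 to 7.67, above the females (3.32 to 3.55). The leukocyte medians of 15 weeks were 2.61 (females) and 2.88 (males), and those of 78 weeks 3.07 (females) and 4.66 (males). The male minus female differences of miR-10a-5p were -0.42, -0.43 and -0.23 at 15, 78 and 104 weeks. Those of miR-10b-5p were -0.15, -0.31 and -0.25. A link between the leukocyte sum and these differences was not tested. The summed kidney epithelium markers had medians of 28.0 and 22.3 at 2 weeks and 43.1 and 30.0 at 104 weeks in females and males. Of the brain markers miR-124-3p was detected on no array and miR-9a-5p on all 74, and of the 3 striated muscle markers miR-206-3p was detected on 17 arrays and miR-1-3p and miR-133a-3p on none.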

How the data were processed

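Kidney RNA of 74 F344 rats was labelled by the authors and hybridised to Agilent 1-colour arrays for rat miRNAs (677 miRNAs, 20 spots each, design annotated to rn4) and read with Agilent Feature Extraction 10.7.3.1. The deposited scanner intensity per miRNA (total gene signal, background-subtracted, undetected set to 0.1) was used. Group and sex came from the sample titles. A deposited table of normalized intensities, which the authors made from the same arrays, was not used, because each of its 74 columns equalled some array within 1% but only 5 the array of the sample they name. Intensities were divided by the 75th percentile of the 311 miRNAs detected on at least 1 array, floored at 0.0171 and taken to log2. Age effects (F test within sex), contrasts, sex differences and the age by sex interaction were fitted over all 311 with limma 3.58.1 in R 4.3.3, with Benjamini-Hochberg adjustment; a call needed an adjusted p under 0.05 and 1.5-fold, and the interaction an adjusted p alone. The fits were tested on simulated data. Alternatives were the floor, ANOVA with the methods' t-test, 3 scalings, normexp with an offset of 50, 2 filters, slide, scan day, replicate number, single probes and left-out arrays, scan day being added after the values were seen. The number of arrays limits the precision. All miRNAs named by the rule are reported, with the 3 miRNAs of most similar pattern for each. The miRNAs and lists were chosen with earlier results of these data known. Replicate numbers did not pair animals (mean r of deviations -0.0513 over 28 same-numbered pairs, 0.0116 over 143 others). Of the marker lists, smooth muscle (miR-143-3p, miR-145-5p) was on all arrays, miR-122-5p of liver on 69, and of red blood cells miR-451-5p on 74 and miR-144-3p on 5.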

Additional observations from a re-analysis of the deposited data

Results flagged for a closer look

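The age courses of 3 of the 8 miRNAs differed between females and males by the interaction test, where 27.7% of all miRNAs passed. These were miR-10a-5p (adjusted p = 0.000680), miR-10b-5p (0.0101) and miR-196b-5p (0.0379). None of the 3 passed with normexp, or with the percentile taken over all miRNAs or over those detected on all arrays. Single animals stood apart from the rest of their group in 9 of the 127 combinations of miRNA and group that could be examined. Chance gives about 1 in 20. That rate does not hold for the groups of miR-196c-3p named below, where the other values were tied at the floor. For miR-10a-5p these were 104-week male replicate 6, at a log2 normalized intensity of 4.66 with the others between 4.95 and 4.97, and 8-week female replicate 2, at 4.96 with the others between 5.13 and 5.16. For miR-10b-5p they were 21-week female replicate 3, at 4.03 with the others all at 4.15, and 5-week male replicate 6, at 4.13 with the others between 3.96 and 3.99. miR-10a-3p in 2-week male replicate 5 was at -3.19, above the others (-3.60 to -3.49). For miR-196c-3p, a single animal was above the floor of -5.87 at which all others of its group were set, namely 104-week male replicate 2 (-5.50), 5-week female replicate 3 (-5.22), 78-week male replicate 2 (-5.45) and 8-week female replicate 4 (-5.24).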

How the results depend on the processing

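For age effects, values here are 104 minus 2 week differences unless other ages are named. Their calls are those of the F test over the 8 ages, so a call can rest on another pair of ages. The falls of the miR-196 5p arms kept their direction and call under every alternative run except normexp in females and the dim first probe of miR-196c-5p. That probe gave -0.0064 in females and 0 in males. Slide as a fixed block cannot test these falls, because ages 2 and 104 weeks shared no slide. Only 15-week female replicate 5 links the younger and older slides. Normexp gave -0.74, -0.34 and -0.53 for miR-196a-5p, miR-196b-5p and miR-196c-5p in females, -0.43 for miR-10b-3p in females, -0.43 for miR-10b-5p in males (now called) and -0.25 for miR-196c-3p in males (call lost). Under normexp 29 miRNAs were called for age in females and 71 in males, against 114 and 141, the median of all miRNAs from 2 to 104 weeks moved by -0.36 and -0.22, 7 ratios changed in females against 13, and the ratios of miR-10a-3p to miR-196b-5p in females and of miR-196b-5p to miR-196c-5p in males turned to -0.0130 and -0.26. The floor before scaling moved the median in males by -0.22. miR-10b-3p in males, with a difference of -0.87, was not called over the 8 ages, although its 104 minus 2 week contrast was. It became called over the 8 ages with the floor set before scaling, with the 50% filter and with all miRNAs tested. The same held with the percentile over all miRNAs (-0.70), quantile normalization (-0.83) and slide random (-0.90). Slide fixed gave -1.44, also called over the 8 ages, but cannot test this difference. The miR-10b-3p call in females was lost with the replicate block (-0.45, adjusted p = 0.0675), with each probe alone (-0.0374, -0.32 and -0.34) and without 11 of 36 arrays (-0.72 to -0.44), while in males it appeared without 10 of 38 (-0.96 to -0.77). Quantile normalization also called miR-10a-5p (-0.56) and miR-10b-5p (-0.67) in males and turned miR-196c-3p in males to 0.0307. The first probe of miR-10b-5p alone gave -0.62 in males (called) and that of miR-196c-3p gave 0. With the percentile over miRNAs detected on all arrays, miR-196c-3p in males was at -0.10 (call lost) and the interactions of miR-10a-5p and miR-196b-5p turned to 0.10 and 0.12. One sex difference was called when all miRNAs were tested (1, miR-10b-3p at 104 weeks) and with slide fixed (1, miR-10a-3p at 15 weeks). Calls within the older ages in females ranged from 16 to 38, the highest without 15-week female replicate 5. Numbers shared between groups did not pair animals: a replicate block kept 120 results on their side of the threshold and lost 3, the others being miR-196b-5p in females for 5 minus 2 weeks (-0.58) and miR-196a-5p in males for 104 minus 21 weeks (-0.54). The causes were not tested. Dimness limits miR-10a-3p, miR-10b-3p and miR-196c-3p, which lie near the floor.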

Other observations

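The ratio of miR-10a-5p to miR-10b-5p within an array was compared between the sexes after its values were seen. It was lower in males than in females without overlap at 6, 8, 15 and 21 weeks, by -0.05, -0.14, -0.27 and -0.32 on the log2 scale, and overlapped at 2, 5, 78 and 104 weeks (0.03 at 104 weeks). The exact two-sided permutation p was 0.00794 at 15 weeks (5 against 5 animals) and at 21 weeks (5 against 4), and 0.133 after Benjamini-Hochberg adjustment over the 168 ratios and ages compared, none of which passed. Across those 168, the sexes did not overlap in 13.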
